A study of Mus musculus with 4 samples.

Results

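Fcer1g, Tyrobp, Hcst, Fcgr3 and Fcgr2b, genes of signalling adaptors and of IgG Fc receptors, were followed in mouse invariant natural killer T (iNKT) cells. They were taken as the named genes whose probe sets carry that symbol alone, which gave 5 genes with 1 probe set each, out of 22180 named genes on the array. The study compared iNKT cells of CD4-Vα14Tg mice, which carry a transgene for the Vα14 chain of the T cell receptor (TCR) driven by the CD4 promoter, with iNKT cells of WT mice; its title puts the question as the effect of TCR density on selection and subset choice of iNKT cells. Total RNA of 2 samples of each genotype was hybridised to 4 Affymetrix whole-transcript arrays; the source is labelled as iNKT cells, although the extraction protocol speaks of frozen tissue. Strain, age, sex, organ and sorting gate are not given in the labels, the expression of the transgene outside iNKT cells was not measured, and nothing says whether the 2 arrays of a genotype came from separate animals, so p-values measure the spread between these samples, which may be technical.

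iNKT cells see CD1d-bound lipids through a largely fixed TCR, and part of them carry receptors shared with natural killer (NK) cells. Many such receptors have no signalling motif of their own and pair in the membrane with a small adaptor. FcRγ (Fcer1g) and DAP12 (Tyrobp) carry an immunoreceptor tyrosine-based activation motif (ITAM) that recruits the kinases Syk and ZAP-70, whereas DAP10 (Hcst) carries a motif that recruits phosphatidylinositol 3-kinase and Grb2. Fcgr3 encodes CD16, an activating IgG receptor that needs FcRγ, and Fcgr2b encodes the inhibitory IgG receptor, whose ITIM recruits the phosphatase SHIP1.

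The arrays had medians from 5.04 to 5.07 on the log2 scale. Genes that define T and iNKT cells were bright on every array: all 8 matched markers lay above the 40th percentile of named probe sets, which was 4.65 to 4.69 and served as the line for dim genes. Their mean was 10.69 to 10.77 in CD4-Vα14Tg and 10.67 to 10.80 in WT, and 0 of the 8 passed limma's test. All 5 adaptor and Fc receptor genes lay above that line on all 4 arrays.

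The FcRγ transcript was lower in CD4-Vα14Tg iNKT cells. Fcer1g read 8.87 and 8.57 on the CD4-Vα14Tg arrays and 10.12 and 9.92 on the WT arrays, on the log2 scale. The groups did not overlap, and the higher CD4-Vα14Tg array lay well below the lower WT array. The group means were 8.72 ± 0.21 and 10.02 ± 0.14 (SD, n = 2 each), a fall of 2.46-fold, or a log2 difference of -1.30 with a standard error of 0.15 and a 95% interval from -1.65 to -0.95 (limma adjusted p = 0.00823). It was the 58th most negative of 13602 differences and the 73rd smallest p. In these bulk samples, fewer cells with the transcript and less transcript per cell cannot be told apart. Fcer1g was 1 of 5 members to pass the test as lower, where 1.34% of all genes tested did, and 0 of 5 passed as higher, where 0.61% did (1.95% in either direction). With 1 array left out the log2 difference ran from -1.45 to -1.15, with limma adjusted p from 0.0127 to 0.0268.

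**Figure D1:**
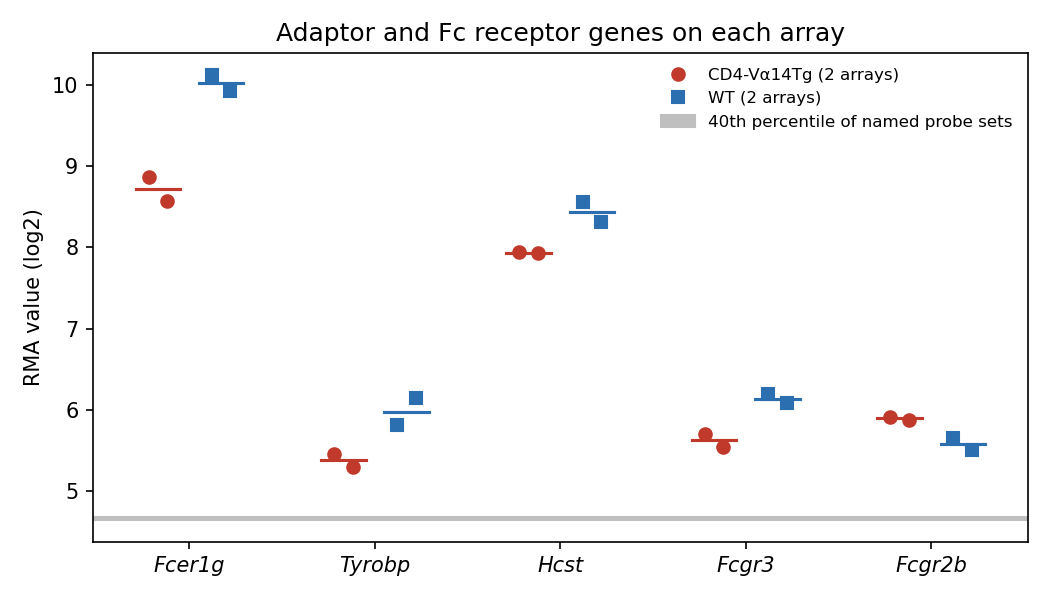
RMA values (log2, y axis) of the 5 genes on the 2 CD4-Vα14Tg arrays (red circles) and the 2 WT arrays (blue squares), with a line at each group mean; the grey band is the 40th percentile of named probe sets on the 4 arrays. Each gene's groups are apart, with CD4-Vα14Tg below WT for 4 genes and above it for Fcgr2b, and the gap is widest for Fcer1g, at 1.30.

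The window around the Fcer1g start site is shown because it is the promoter of the member that passed. It runs from 250 bases before to 50 after the start site on the minus strand, at chr1:171234300-171234599 of GRCm38.p6 (RefSeq). Capitals mark matches to the ETS core AGGAAG and the RUNX core TGTGGT, searched on both strands.
Fcer1g: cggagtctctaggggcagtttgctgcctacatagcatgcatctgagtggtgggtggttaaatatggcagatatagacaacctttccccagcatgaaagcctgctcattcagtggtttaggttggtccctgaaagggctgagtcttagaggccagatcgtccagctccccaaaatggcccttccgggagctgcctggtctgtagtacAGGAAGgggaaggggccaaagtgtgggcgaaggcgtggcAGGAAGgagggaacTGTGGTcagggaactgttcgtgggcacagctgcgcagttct
AGGAAG began at positions -44 and -5 from the start site and TGTGGT at position 10. The T-box core AGGTGT and the AP-1 motif TGANTCA had 0 matches in this window. Of 27025 promoter windows of this length, 35.1% held AGGAAG, 16.9% TGTGGT, 13.9% AGGTGT and 7.93% TGANTCA on either strand, so such matches are common and describe letters only.

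The DAP12 and DAP10 genes were also lower on both CD4-Vα14Tg arrays than on both WT arrays, by smaller amounts that did not pass the test. Tyrobp read 5.46 and 5.30 in CD4-Vα14Tg and 5.81 and 6.15 in WT. The WT arrays were the wider pair, and the groups lay apart. The CD4-Vα14Tg values of Tyrobp were not far above the dim line, so its difference may be compressed. Its means were 5.38 ± 0.11 and 5.98 ± 0.24, which is -0.60 on the log2 scale, and the 95% interval ran from -0.95 to -0.25 (limma adjusted p = 0.126). Without 1 array it ran from -0.77 to -0.43.

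Hcst read 7.94 and 7.93 in CD4-Vα14Tg and 8.56 and 8.31 in WT. The CD4-Vα14Tg arrays were nearly equal, and both lay below the WT arrays. Its means were 7.93 ± 0.0064 and 8.44 ± 0.18, which is -0.50 on the log2 scale, and the interval ran from -0.81 to -0.19 (limma adjusted p = 0.144). Without WT replicate 1, its brightest array, the log2 difference was -0.38, and over the 4 such fits it ran from -0.63 to -0.38. The Hcst promoter window held 2 matches to AGGAAG and 0 to each of the other motifs.

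The IgG receptor genes differed in direction. Fcgr3 read 5.71 and 5.55 in CD4-Vα14Tg and 6.19 and 6.09 in WT. Both CD4-Vα14Tg arrays were the lower ones, and the means were 5.63 ± 0.11 and 6.14 ± 0.072. The log2 difference was -0.51, its interval ran from -0.81 to -0.22, and it did not pass (limma adjusted p = 0.116).

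Fcgr2b read 5.92 and 5.87 in CD4-Vα14Tg and 5.65 and 5.51 in WT. Here the CD4-Vα14Tg arrays were the higher ones, and the means were 5.90 ± 0.033 and 5.58 ± 0.10. The log2 difference was 0.31, its interval ran from 0.03 to 0.60, and it did not pass (limma adjusted p = 0.354). The extracellular parts of both receptors are closely alike in mice, and whether probes of one read the other was not tested.

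The promoter windows of both IgG receptor genes are shown because they are close relatives that differed in sign. Both are on the minus strand of GRCm38.p6 (RefSeq), Fcgr3 at chr1:171059354-171059653 (the first of 2 windows listed) and Fcgr2b at chr1:170976022-170976321, and capitals mark a match to one of the motifs above.
Fcgr3: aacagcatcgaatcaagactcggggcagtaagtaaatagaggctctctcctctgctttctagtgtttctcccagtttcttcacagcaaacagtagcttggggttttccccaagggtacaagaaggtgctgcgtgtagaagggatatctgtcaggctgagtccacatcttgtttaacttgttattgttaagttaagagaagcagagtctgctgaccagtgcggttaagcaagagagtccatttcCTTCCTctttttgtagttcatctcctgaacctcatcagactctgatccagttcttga
Fcgr2b: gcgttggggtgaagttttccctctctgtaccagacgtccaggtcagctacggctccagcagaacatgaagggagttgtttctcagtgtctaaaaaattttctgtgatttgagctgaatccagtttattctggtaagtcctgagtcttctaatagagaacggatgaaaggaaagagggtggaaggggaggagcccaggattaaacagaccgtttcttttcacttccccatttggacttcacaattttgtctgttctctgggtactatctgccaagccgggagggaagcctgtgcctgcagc
The Fcgr3 window held AGGAAG once, on the opposite strand (CTTCCT) from position -7. The Fcgr2b window held 0 matches to the motifs.

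In all 5 genes the groups of arrays lay apart, 4 of them lower and 1 higher in CD4-Vα14Tg. Over all genes tested, 39.1% had groups that lay apart, 23.4% lower and 15.7% higher, and the median log2 difference was -0.02. The intervals of Tyrobp, Hcst and Fcgr3 lay largely over each other, so their order by size of difference was not resolved.

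**Figure D2:**
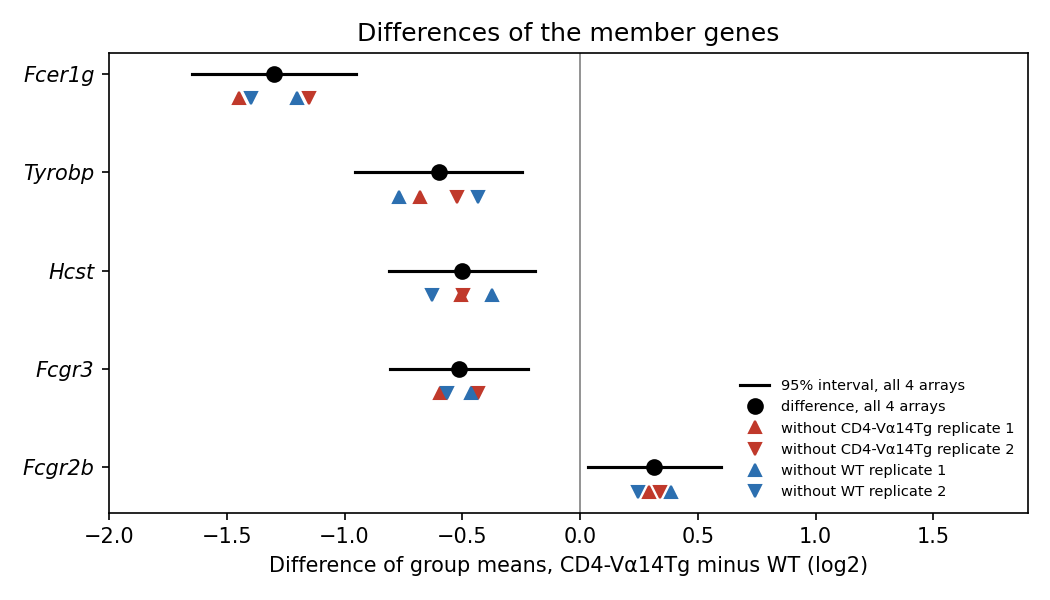
Log2 difference of group means, CD4-Vα14Tg minus WT (x axis), for each gene: black points with 95% limma intervals use all 4 arrays, and triangles leave out 1 array (red, a CD4-Vα14Tg array; blue, a WT array). The triangles of Fcer1g run from -1.45 to -1.15, and since the groups of all 5 genes lie apart no triangle can cross 0; the intervals of Tyrobp, Hcst and Fcgr3 overlap.

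Most tested transcripts of a list of NK cell receptors tied to these adaptors were lower in CD4-Vα14Tg cells. The list holds receptors of the adaptor pathway and some neighbours of it. Of its 14 entries, 11 were named on the array, without Klra4, Klra8 and Klrb1a, and 10 were tested. Of these 8 fell, 0 rose and 2 failed the test, and their median log2 difference was -1.33, against -0.02 for all genes tested, of which 1.34% fell and 0.61% rose. Klrc2 and Ncr1 were above the dim line in WT only, and among the other 8 tested, 6 fell. Of the 2 that failed, Cd160 lay close to the threshold, with a log2 difference of -0.91 (limma adjusted p = 0.0502). With a variance trend in limma 9 fell, and with a stricter filter on dim genes 8 did. The count of falls was 6 to 9 with 1 array left out.

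Klrd1, the CD94 chain that pairs with NKG2 chains, read 8.10 and 8.07 in CD4-Vα14Tg and 10.17 and 10.46 in WT, a fall of 4.69-fold (limma adjusted p = 7.44e-04). Klrk1 encodes NKG2D, the receptor that signals through DAP10 and in mice also through DAP12. It read 8.46 and 8.72 against 9.73 and 9.93, a fall of 2.37-fold (limma adjusted p = 0.00833). Klrb1c encodes NK1.1, an activating receptor that uses FcRγ. It read 6.39 and 6.53 against 7.83 and 7.98, a fall of 2.72-fold (limma adjusted p = 0.00326). Klrd1, Klrk1 and Klrb1c had both CD4-Vα14Tg arrays below both WT arrays, as had 23.4% of all genes tested. They were named because they passed as lower, so this order of arrays adds nothing to their calls.

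Klrc2, the activating NKG2C chain, read 4.25 and 4.28 in CD4-Vα14Tg, below the dim line, and 6.20 and 7.03 in WT (limma adjusted p = 0.00601), so no fold is given. Not every gene that fell rests on these adaptors. Klrb1b is an inhibitory relative of NK1.1 (3.15-fold lower, limma adjusted p = 0.00288). Cd244a encodes 2B4, which signals through SAP (2.66-fold lower, limma adjusted p = 0.00326). In CD4-Vα14Tg, Klrb1b read 4.81 and 4.81 and Cd244a 5.13 and 4.92, not far above the dim line, so these folds may be compressed.

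Receptors of myeloid cells listed as tied to DAP12 or FcRγ were mostly dim. Like the NK cell list, this list also holds some relatives that do not rest on these adaptors. Of 20 matched, 15 lay below the dim line on all 4 arrays and 3 were tested. By limma 0 of the 3 passed, and an unadjusted p under 0.05 was found for 0, where 11.7% of all genes tested had one. Their median log2 difference was 0.02. Trem2, a lipid-sensing receptor of macrophages, had a log2 difference of 0.06 and Cd300lb had -0.035, and the sign of both turned when 1 array was left out.

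Among 16 other Fc receptor genes, 6 were tested: 1 rose, 0 fell and 5 failed the test, and the median was -0.045. The gene that rose was Fcrl1, an Fc receptor-like protein best known from B cells. Fcrl1 read 7.07 and 6.95 in CD4-Vα14Tg and 5.71 and 5.89 in WT, a rise of 2.31-fold (limma adjusted p = 0.00601). Fcgr1 and Fcgr4, the other activating IgG receptors that use FcRγ, and Fcer1a, the IgE-binding chain of the high-affinity IgE receptor, lay below the dim line on all 4 arrays.

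Among other ITAM chains and the ERM proteins listed with them, 7 were tested and 0 passed by limma, although an unadjusted p under 0.05 was found for 2, against that 11.7% of all genes. The median was -0.13. The 2 were Cd79b, a signalling chain of the B cell receptor, with a log2 difference of 0.48 (limma adjusted p = 0.124), and Ezr, which links membrane proteins to actin, with -0.36 (limma adjusted p = 0.361). The CD3 chains Cd3d, Cd3e and Cd3g had log2 differences of -0.13, -0.31 and -0.09. Cd247, the TCR ζ chain, was not analysed here.

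Of 34 tested downstream kinases and adaptors, 2 fell, 0 rose and 32 failed the test, where 1.34% of all genes tested fell and 0.61% rose. The median was -0.03. Blk, a Src family kinase, read 6.33 and 5.98 in CD4-Vα14Tg and 8.46 and 8.53 in WT, a fall of 5.07-fold (limma adjusted p = 7.59e-04). Tec, a kinase that acts on phospholipase Cγ, fell 1.83-fold (limma adjusted p = 0.0162). It no longer passed without CD4-Vα14Tg replicate 1 (0.0616), CD4-Vα14Tg replicate 2 (0.0633) or WT replicate 2 (0.0783), although its log2 difference stayed near the -0.87 of all arrays, at -0.88, -0.87 and -0.80. Syk and Zap70 encode the kinases that bind phosphorylated ITAMs. Syk differed by -0.002 (limma adjusted p = 0.999) and Zap70 by -0.26 (limma adjusted p = 0.504) on the log2 scale. Syk read from 5.08 to 5.30, not far above the dim line, so its difference may be compressed. Zap70 read from 9.63 to 10.03.

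By limma, 0 of 21 tested genes of inhibitory ITIM signalling passed. An unadjusted p under 0.05 was found for 6 of them, where 11.7% of all genes tested had one, and the median was -0.10. Of these 6, Lair1 and Pecam1 were higher, with log2 differences of 0.50 and 0.48, and Pag1, Cd22, Ptpn22 and Ptpn6 were lower. Pag1, an adaptor that holds the kinase Csk at the membrane, had a log2 difference of -0.59 (limma adjusted p = 0.0675, and 0.0478 with a stricter filter on dim genes and 0.0480 with a variance trend). Cd22, an inhibitory lectin of B cells, had -0.64 (limma adjusted p = 0.0785). Inpp5d, which encodes SHIP1, had -0.15 (limma adjusted p = 0.766).

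**Figure D3:**
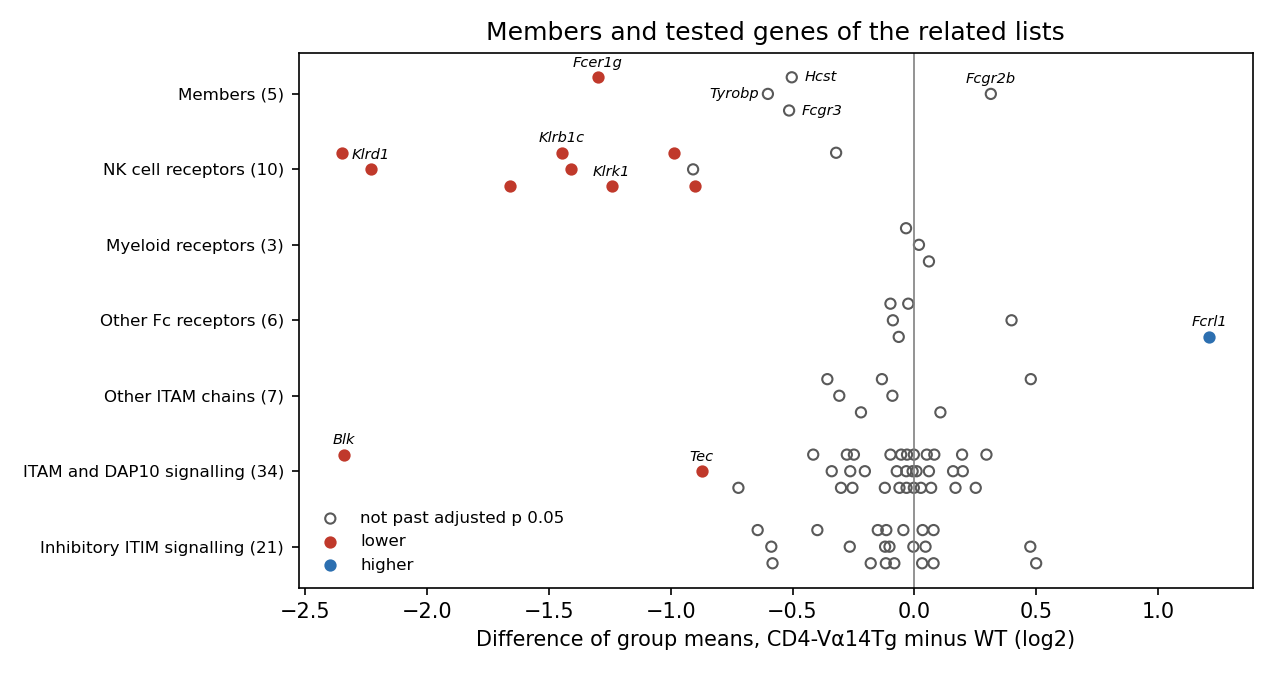
Log2 difference of group means, CD4-Vα14Tg minus WT (x axis), of the 5 members and of every tested gene of 6 related lists (rows, number of genes in brackets; height within a row only separates points). Filled points passed limma's test (red lower, blue higher) and open points did not. The NK cell receptors lie furthest to the left, with 8 of 10 filled. The medians of the signalling lists lie near 0, and Blk and Tec are the only filled points of those lists.

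The members are also used as genes of NK and myeloid cells, so markers of those cells are given beside them. Of 10 matched NK cell markers 8 were tested, and 7 fell and 0 rose, where 1.34% of all genes tested fell and 0.61% rose. Ncr1 was above the dim line in WT only, and among the other 7 tested, 6 fell. The mean of the 10 was at most 6.02 in CD4-Vα14Tg and from 7.23 to 7.34 in WT, so this list moved with Fcer1g. Eomes, a transcription factor that marks NK cells, lay below the dim line on all 4 arrays. Klrb1c, Klrk1 and Ncr1 stand in both the receptor and the NK marker list, iNKT cells express several of these genes too, and the part of NK cells in the result was not tested.

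Of 17 matched macrophage and monocyte markers, 9 lay below the dim line on all 4 arrays, among them Adgre1, Csf1r, Lyz2 and Cd14. Another 7 lay above it on all 4 arrays, among them Ctss (9.48 to 9.79), Ccr2 (7.56 to 8.04) and Cd68 (6.71 to 7.19). The list mean was 5.15 to 5.21 in CD4-Vα14Tg and 5.16 to 5.17 in WT, and 1 of 8 tested genes rose, the integrin αM gene Itgam. Of 10 mast cell and basophil markers 9 were below the line on all arrays, Kit being the exception, with list means of 3.71 to 3.79 and 3.74 to 3.78. For neutrophils, B cells and dendritic cells, 9 of 13, 6 of 11 and 3 of 12 markers were below it, and the list means of CD4-Vα14Tg and WT arrays overlapped: 4.17 to 4.18 against 4.09 to 4.29, 4.75 to 4.81 against 4.72 to 4.87, and 5.71 to 5.76 against 5.70 to 5.77. Among these 3 lists only Ccr9, of the dendritic cell list, passed limma's test, as higher. Some markers were bright: Ighm of the B cell list (10.07 to 10.31), and Cd209a (10.5 to 11.1) and Bst2 (9.22 to 9.84) of the dendritic cell list.

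The 5 genes lie at 2 loci. Fcgr2b, Fcgr3 and Fcer1g are on chromosome 1 with other genes between them, and Tyrobp and Hcst are direct neighbours on chromosome 7 in the RefSeq order of GRCm38.p6. On chromosome 1, the tested genes between Fcgr3 and Fcer1g were Cfap126, Sdhc, Pcp4l1, Tomm40l and Apoa2, with log2 differences from -0.17 to 0.05 and 0 calls. Of the tested genes at this locus, Fcer1g had the largest difference. B4galt3, beyond it, had -0.14.

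On chromosome 7 the next gene beside Hcst was Nfkbid, which encodes an inhibitor-like regulator of NF-κB. Nfkbid read 8.98 and 8.89 in CD4-Vα14Tg and 9.46 and 9.57 in WT, a log2 difference of -0.58 (limma adjusted p = 0.0678), close to those of Tyrobp and Hcst. Aplp1, next in order, had -0.36, and Sdhaf1 on the other side had -0.07. None of these 3 neighbours passed limma's test.

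**Figure D4:**
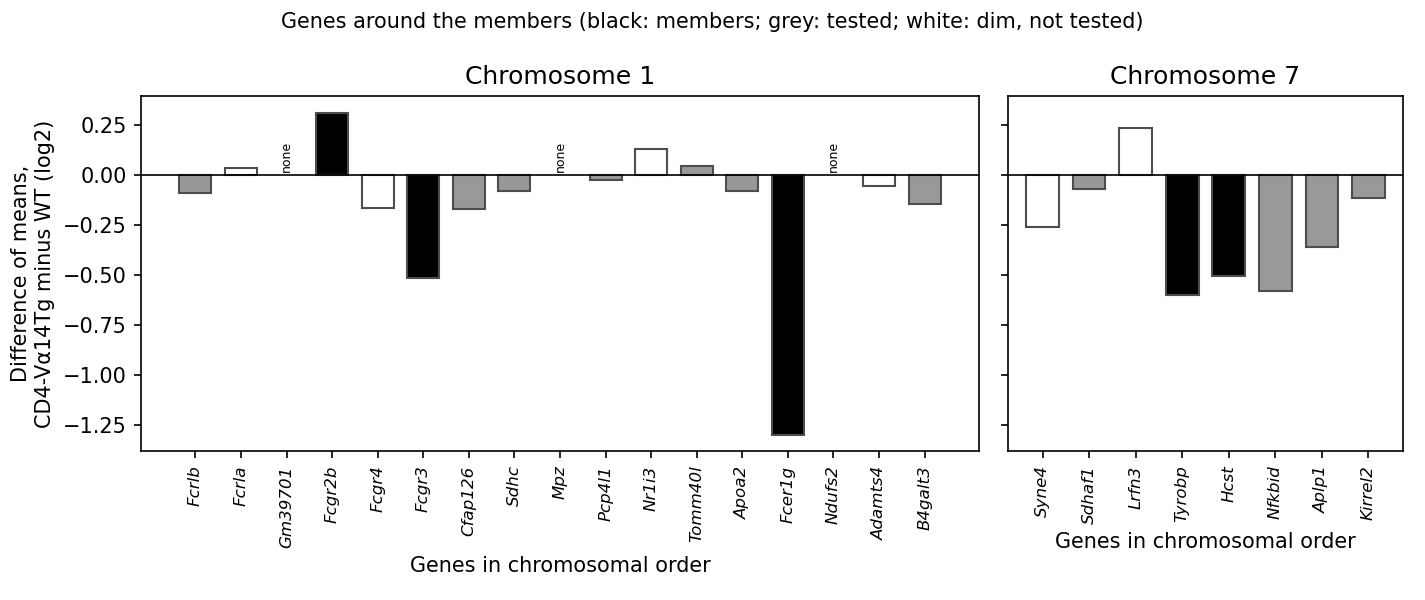
Log2 difference of group means, CD4-Vα14Tg minus WT (y axis), of protein-coding genes in chromosomal order (x axis, not to distance) from 3 genes before to 3 after the members, on chromosome 1 (left) and 7 (right); black bars are members, grey bars tested genes, white bars dim genes that were not tested, and "none" marks genes without a probe set of their own here. On chromosome 1 the Fcer1g bar reaches -1.30 among small bars, and on chromosome 7 Tyrobp, Hcst and Nfkbid have bars of -0.60, -0.50 and -0.58.

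The genes whose profiles over the 4 arrays lay nearest to each member were found by Euclidean distance of log2 values after centring each gene on its mean. Nearest to Fcer1g were Ifitm2, Fam20a and Ryk, at distances of 0.166, 0.170 and 0.171, and all 3 fell. Fam20a was 2.31-fold and Ryk 2.22-fold lower. Ifitm2 was above the dim line in WT only, at 5.17 and 4.92 against 3.89 and 3.41, so no fold is given. Nearest to Tyrobp were Igfbp7, Dnmt3b and Nudt4 (0.056 to 0.097), to Hcst Clpsl2, S1pr2 and Plekhd1 (0.040 to 0.059), to Fcgr3 Tnfsf11, Snai1 and Pyurf (0.030 to 0.035), and to Fcgr2b Sh3bp4, Myadm and Mfsd13a (0.013 to 0.023). Among the members themselves, Hcst and Fcgr3 were the closest pair at 0.152, and Fcer1g and Fcgr2b the farthest at 1.62. With 4 arrays in 2 groups such nearness mostly restates the size of the difference.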

How the data were processed

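The deposited values are log2 expression, 1 per probe set and array, which the authors made with RMA (background correction, quantile normalization and probe summary) and Affymetrix Power Tools, per the submitters' processing notes. For both tools the version, and also the genome build, is not given in the sources used here. Quantile normalization hides a shift of total RNA, and differences of dim probe sets are compressed. Of 41345 probe sets, the platform annotation gave 1 symbol for 23521, several for 1814 and none for 16010, and 21994 of 22180 genes were found in the RefSeq table. For 1082 genes with several probe sets the one with the highest mean was kept. Genes at or above the 40th percentile of named probe sets on at least 2 arrays were tested, which left 13602 and set 8578 aside.

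Groups follow the sample titles. The comparison used limma 3.58.1 (R 4.3.3; lmFit, then eBayes; two-sided, CD4-Vα14Tg minus WT, Benjamini-Hochberg over all genes tested, threshold 0.05). The fit was tested on simulated data. Tables and plots used Python 3.11.15, pandas 2.3.3, numpy 2.4.6 and matplotlib 3.10.9. A fold is 2 to the power of the absolute difference of means. The number of arrays limits the precision.

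The members and the 13 gene lists were chosen with earlier results of these data known, and of 223 list entries 198 matched. Named were all 5 members, up to 6 called genes of each pathway list (or the 2 with the largest moderated t where 0 were called) and the 3 genes nearest to each member. Other genes are named as textbook partners or chromosomal neighbours of the members, as single calls of a marker list, or as examples of marker genes above or below the dim line, and these, like the neighbour comparison, were chosen after values were seen. Cd160 and the ITIM genes with an unadjusted limma p under 0.05 are named to show what the counts hold, also after values were seen. Alternatives changed the normalization, the filter, limma's variance model, the use of several probe sets, a replicate block and the arrays included. RefSeq promoter windows were found for 4 of 5 members, Tyrobp being the one not shown. Scanner intensities were not used here, so no other background correction was tried.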

Additional observations from a re-analysis of the deposited data

How the results depend on the processing

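Each of the 5 members kept its direction under every alternative in which it was tested, which leaving out 1 array could not change, since their groups lie apart. Tyrobp fell below the 60th percentile filter. Klrc2, Ncr1 and Ifitm2 had a measured level above the dim line in WT only. Fcer1g passed in all 12, with limma adjusted p from 5.65e-04 to 0.0268. Replicate numbers are shared by the genotypes, and deviations of the arrays numbered 1 correlated at 0.262 over 13602 genes; with 2 numbers this does not establish pairing. With the replicate block, Fcgr3 (log2 difference -0.51) passed at a limma adjusted p of 0.0419, 2 members were called lower, the ITIM list had 3 genes lower, Pag1 (limma adjusted p = 0.0299) and Cd22 (0.0207) beside Ptpn22, and calls over all genes were 422 lower and 252 higher, against 182 and 83 without it. The ITIM list had 1 gene lower with the stricter filter and 1 with the variance trend. With 1 array left out, the lone array of a group is assumed to vary as the others do. Genes lower were then 101 to 147 and genes higher 52 to 74, the signalling list had 1 to 2 lower, Trem2 ranged from -0.177 to 0.298, turning to -0.177 without WT replicate 2, and Cd300lb ranged from -0.154 to 0.085, turning to 0.053 without CD4-Vα14Tg replicate 2 and to 0.085 without WT replicate 1.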
